A study of Caenorhabditis elegans with 8 samples.

Results

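The 10 genes described here encode the enzymes of the 2 routes by which Caenorhabditis elegans disposes of propionate, and they were chosen by name from the 41560 rows of a table of transcript levels. The first 5, acdh-1, ech-6, F09F7.4 (hach-1), Y38F1A.6 (hphd-1) and alh-8, form the propionate shunt. The remaining 5, pcca-1, pccb-1, mce-1, mmcm-1 and mmaa-1, form the canonical route that depends on vitamin B12. In the WBcel235 annotation acdh-1 and mce-1 lie on chromosome I, Y38F1A.6, alh-8 and mmaa-1 on II, ech-6, F09F7.4 and mmcm-1 on III, and pcca-1 and pccb-1 on X. All 10 had a row in the table and all 10 passed the filter on low values.

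RNA came from whole young adult worms kept at 20 °C on NGM agar. The 4 groups, with 2 libraries each, were daf-16(mgDf50) mutants fed hns mutant Escherichia coli, daf-16(mgDf50) mutants fed BW25113 E. coli, wild-type N2 worms fed hns mutant E. coli, and wild-type N2 worms fed BW25113 E. coli. The hns bacteria were BW25113 in which hns was knocked out, the gene of H-NS, a nucleoid protein that silences transcription in E. coli, and DAF-16 is the FOXO transcription factor held in check by insulin-like signalling. Nothing in the labels tells separate worm cultures from repeat preparations, so p-values here reflect only how far these samples scatter, and that scatter may be technical.

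Propionyl-CoA arises in the breakdown of valine, isoleucine, methionine, threonine and odd-chain fatty acids, and propionate is toxic when it accumulates. With enough B12, propionyl-CoA carboxylase, the epimerase MCE-1 and the mutase MMCM-1 turn it into succinyl-CoA, which enters the citric acid cycle. Worms take B12 from their bacterial food, and on a diet poor in B12, as E. coli diets commonly are, they transcribe the shunt, a β-oxidation-like path that ends in acetyl-CoA. Transcription of acdh-1, the first gene of the shunt, is widely used in worms as a reporter of dietary B12 and propionate.

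On hns food 3 shunt genes, acdh-1, F09F7.4 and Y38F1A.6, were lower when averaged over both genotypes, while 6 genes did not pass the test: ech-6 (adjusted p = 0.0661) and alh-8 of the shunt, and mmcm-1 (adjusted p = 0.242), pcca-1, pccb-1 and mce-1 of the B12 route. The transcript of acdh-1 was 1.54-fold lower on hns food, Y38F1A.6 1.48-fold lower and F09F7.4 1.39-fold lower. The B12-route gene mmaa-1 was 1.20-fold lower. Of all 14564 genes tested, 0.515% passed lower and 1.24% higher in this pooled comparison. Among these calls only that of acdh-1 held in every alternative setting described below. None of the 10 genes passed for genotype or for a difference in food effect between the genotypes. Of all genes, 0.831% passed for genotype pooled over foods and 0.0961% for that difference.

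**Figure D1:**
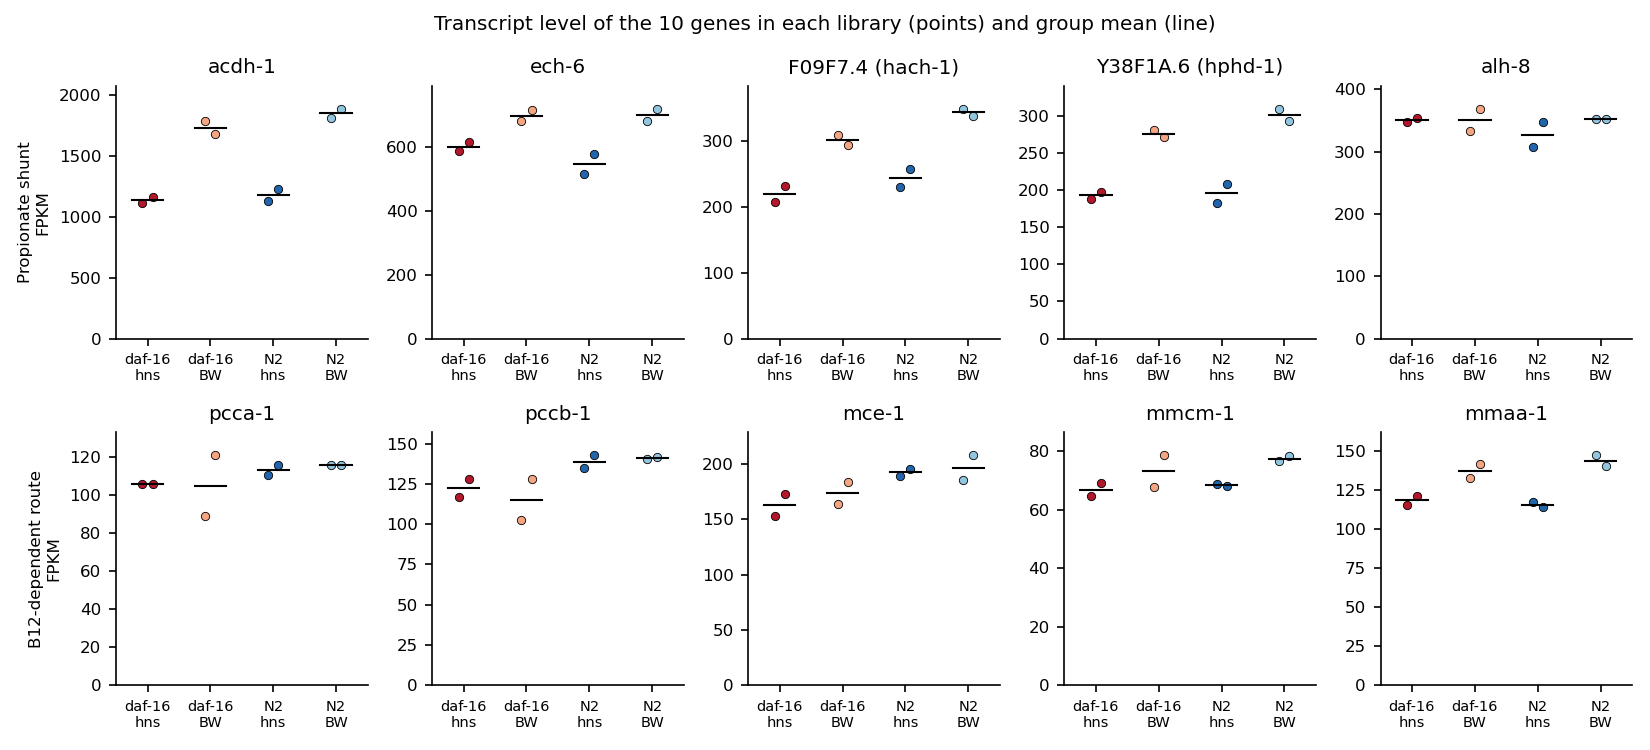
Transcript level in FPKM (vertical axes, each from 0) of the 5 shunt genes (upper row) and the 5 B12-route genes (lower row) in daf-16 on hns food, daf-16 on BW25113 food, N2 on hns food and N2 on BW25113 food. Points are the 2 libraries of a group and lines their mean; for acdh-1 the 4 libraries on hns food lie between 1111 and 1230 FPKM, below all 4 on BW25113 food.

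Values are FPKM, fragments per kilobase of transcript scaled to the mapped fragments of the library, so levels can be compared between genes per unit of length. FPKM summed to between 2128460 and 2508481 per library. The spacing of low values put the depth at roughly 20500000 to 22400000 fragments per library, at which the 10 genes would hold from about 2730 to 56314 fragments per library and counting error would be at most 1.91% of a value. The transcript of daf-16, a check of genotype, stood between 15.8 and 19.2 FPKM in the mutant and between 69.9 and 77.4 FPKM in N2. Summed intestinal, muscle, neuronal, hypodermal and germline markers were above 0 in every library of these whole worms. Sperm and embryo markers summed to at most 12.4 and 13.9 FPKM.

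Differences were tested on log2(FPKM + 1) with limma over 14564 genes, with two-sided p-values adjusted over all of them by the Benjamini-Hochberg method and a threshold of 0.05. Each log2 fold change is given with its standard error, and 95% intervals are not adjusted for the number of genes. Values written as fold lower are ratios of mean FPKM, and can differ slightly from the log2 fold change. Standard errors and p-values belong to the log2 fold change. The pooled food effect is the mean of the effects in the 2 genotypes, so it uses the same libraries as the separate effects and is not independent of them. In whole animals, fewer cells of a type and less RNA per cell cannot be told apart.

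Among the 10 genes the pooled food effect had its largest estimate at acdh-1, the first step of the shunt. The acyl-CoA dehydrogenase gene acdh-1, whose product oxidises propionyl-CoA to acrylyl-CoA, had 1111 and 1165 FPKM in daf-16 on hns food, against 1785 and 1677 FPKM in daf-16 on BW25113 food. N2 worms had 1132 and 1230 FPKM with hns bacteria, against 1810.0 and 1884 FPKM on BW25113 food. The foods did not overlap in either genotype. The pooled log2 fold change was -0.63 ± 0.06 (limma adjusted p = 0.00617), which ranked 52 by p among the genes tested. Separately, the change was 1.52-fold lower in daf-16 (-0.60 ± 0.08, adjusted p = 0.0507) and 1.56-fold lower in N2 (-0.65 ± 0.08, adjusted p = 0.032). In N2 the call was lost without either daf-16 library on hns food and without any 1 of the 4 N2 libraries (adjusted p of 0.0645 to 0.222), and also without the filter on low values (0.0576) and with only the N2 libraries in the fit (0.121), whereas the pooled call held in all 14 alternatives (adjusted p of 0.00489 to 0.0481).

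The enoyl-CoA hydratase gene ech-6 acts next, adding water to acrylyl-CoA, and is also an enzyme of valine breakdown. It had 586 and 616 FPKM in daf-16 on hns food, against 681 and 715 FPKM on BW25113 food. The N2 libraries held 516 and 578 FPKM with hns bacteria, against 682 and 719 FPKM on BW25113 food. Every library on hns food was lower than every library on BW25113 food, but the pooled change, -0.29 ± 0.05, did not pass (limma adjusted p = 0.0661). With quantile normalization the adjusted p was 0.045.

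F09F7.4, the gene of the hydrolase HACH-1 that frees 3-hydroxypropionate from its CoA ester, had 207 and 232 FPKM in daf-16 on hns food, against 309 and 294 FPKM on BW25113 food. Wild-type N2 libraries held 231 and 258 FPKM with hns bacteria, against 349 and 338 FPKM on BW25113 food. The foods again did not overlap. The pooled change was -0.47 ± 0.06 (limma adjusted p = 0.0224), while the change was -0.46 ± 0.08 in daf-16 (adjusted p = 0.169) and -0.49 ± 0.08 in N2 (adjusted p = 0.062). The pooled adjusted p was between 0.0595 and 0.0954 without replicate 1 of daf-16 on hns food, replicate 1 of N2 on hns food or any 1 of the 4 libraries on BW25113 food.

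Y38F1A.6 encodes HPHD-1, the dehydrogenase that turns 3-hydroxypropionate into malonic semialdehyde. Its transcript had 188 and 198 FPKM in daf-16 on hns food, against 281 and 271 FPKM on BW25113 food. In N2 it had 183 and 209 FPKM with hns bacteria, against 309 and 293 FPKM on BW25113 food. The lowest library on BW25113 food was higher than the highest on hns food. The pooled change was -0.57 ± 0.06 (limma adjusted p = 0.00864), the change in daf-16 was -0.51 ± 0.08 (adjusted p = 0.0911) and that in N2 was -0.62 ± 0.08 (adjusted p = 0.032). The call in N2 was lost without any 1 of the 8 libraries (adjusted p of 0.0555 to 0.162), without the filter on low values (0.0576) and with only the N2 libraries in the fit (0.144). Leaving out replicate 1 of daf-16 on hns food ended the pooled call (adjusted p = 0.0518), and the other 13 alternatives did not.

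The last gene of the shunt did not pass the test. The semialdehyde dehydrogenase gene alh-8, whose product makes acetyl-CoA from malonic semialdehyde and also acts in valine breakdown, had 347 and 353 FPKM in daf-16 on hns food, against 332 and 369 FPKM on BW25113 food. N2 worms had 308 and 347 FPKM with hns bacteria, against 353 and 353 FPKM on BW25113 food. The foods overlapped in daf-16 and not in N2. The pooled change was -0.05 ± 0.06 (limma adjusted p = 0.577), with a 95% interval of -0.19 to 0.08 that does not meet the interval of acdh-1, -0.76 to -0.49. In the reference annotation an exon of alh-8 overlaps one of F13D12.8 on the other strand, and the handling of strand is not given in the sources used here. F13D12.8 stood between 8.64 and 14.5 FPKM.

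**Figure D2:**
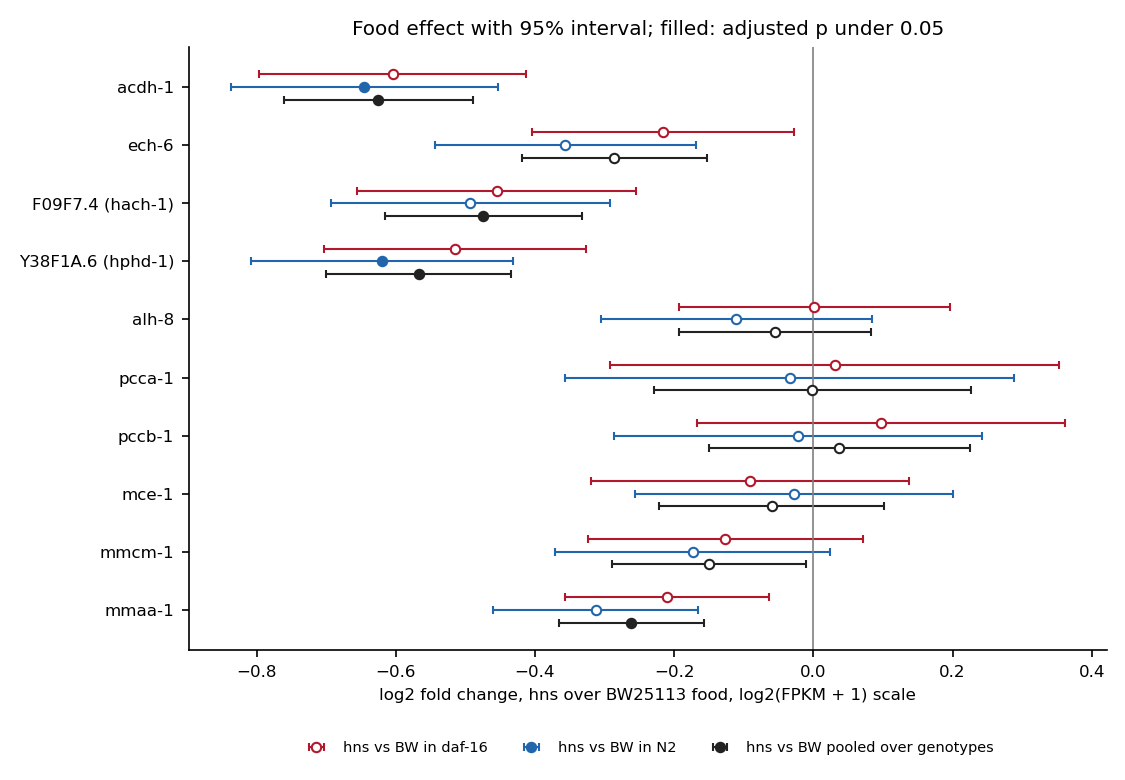
Food effect on each of the 10 genes as a log2 fold change, hns over BW25113 food (horizontal axis, log2(FPKM + 1) scale), in daf-16, in N2 and pooled. Bars are 95% intervals and filled points passed an adjusted p of 0.05; acdh-1, F09F7.4, Y38F1A.6 and mmaa-1 passed when pooled, and the points of alh-8, pcca-1, pccb-1 and mce-1 lie near 0.

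In the B12 route the 2 subunit genes of propionyl-CoA carboxylase, the biotin enzyme that makes methylmalonyl-CoA, lay close to 0. The α subunit gene pcca-1 had 106 and 106 FPKM in daf-16 on hns food, against 88.7 and 121 FPKM on BW25113 food. The N2 libraries held 110.4 and 116 FPKM with hns bacteria, against 116 and 116 FPKM on BW25113 food. Replicate 1 of daf-16 on BW25113 food was its lowest library and replicate 2 of the same group its highest. The β subunit gene pccb-1 had 117 and 128 FPKM in daf-16 on hns food, against 102 and 128 FPKM on BW25113 food. Its levels in N2 were 135 and 143 FPKM with hns bacteria, against 140.2 and 141.7 FPKM on BW25113 food. Foods overlapped in both genotypes for both subunits. The pooled changes were -0.0015 ± 0.09 for pcca-1 (95% interval -0.23 to 0.23, limma adjusted p = 0.995) and 0.04 ± 0.08 for pccb-1 (-0.15 to 0.22, adjusted p = 0.781). The level of pccb-1 was 1.06 to 1.23 times that of pcca-1 in every library. In the reference annotation pccb-1 overlaps an exon of wrt-2 on the other strand, and wrt-2 stood between 1.40 and 6.26 FPKM.

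The epimerase gene mce-1, whose product converts one form of methylmalonyl-CoA into the form that the mutase accepts, had 153 and 173 FPKM in daf-16 on hns food, against 164 and 183 FPKM on BW25113 food. Wild-type N2 libraries held 189 and 196 FPKM with hns bacteria, against 186 and 208 FPKM on BW25113 food. The foods overlapped in both genotypes, and the pooled change was -0.06 ± 0.07 (limma adjusted p = 0.602). The mutase gene mmcm-1, whose product needs adenosylcobalamin, a form of B12, had 64.7 and 69.2 FPKM in daf-16 on hns food, against 67.96 and 78.6 FPKM on BW25113 food. Its levels in N2 were 69.0 and 68.2 FPKM with hns bacteria, against 76.7 and 78.3 FPKM on BW25113 food. The foods overlapped in daf-16 only, and the pooled change was -0.15 ± 0.06 (95% interval -0.29 to -0.01, adjusted p = 0.242).

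The B12-route gene that passed in the pooled comparison was mmaa-1. It encodes the worm counterpart of MMAA, known in humans as a GTPase that guards the mutase and its cofactor. It had 116 and 121 FPKM in daf-16 on hns food, against 133 and 141.8 FPKM on BW25113 food. In N2 it had 117 and 114.2 FPKM with hns bacteria, against 147 and 141 FPKM on BW25113 food. All 4 libraries on hns food were lower than all 4 on BW25113 food. The pooled change was -0.26 ± 0.04 (limma adjusted p = 0.0465), against -0.21 ± 0.06 in daf-16 (adjusted p = 0.541) and -0.31 ± 0.06 in N2 (adjusted p = 0.0839). The pooled call was lost without any 1 of the 8 libraries (adjusted p of 0.0665 to 0.156), without the filter on low values (0.0623) and with quantile normalization (0.0716).

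Counted together, 3 of 5 shunt genes and 1 of 5 B12-route genes fell on hns food in the pooled comparison and 0 rose, by limma. Of all 14564 genes 1.76% passed, 0.515% lower and 1.24% higher. The 4 calls became 1 without replicate 1 of daf-16 on hns food, 2 without replicate 1 of N2 on hns food or any 1 of the 4 libraries on BW25113 food, and 3 without replicate 2 of either genotype on hns food. The median log2 fold change was -0.47 over the shunt genes and -0.06 over the B12-route genes, against -0.0067 over all genes. In 5 of the 10 genes, acdh-1, ech-6, F09F7.4, Y38F1A.6 and mmaa-1, all 4 libraries on hns food lay below all 4 on BW25113 food, as they did in 4.19% of all genes.

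In daf-16 alone, limma called 0 of the 10 in either direction, where 0.405% of all genes passed, 0.206% lower and 0.199% higher. The genes acdh-1, ech-6, F09F7.4, Y38F1A.6 and mmaa-1, 5 of the 10, had an unadjusted p under 0.05, where 6.5% of all genes did. The same 5 had both libraries on hns food below both on BW25113 food, as had 14.7% of all genes. The call of acdh-1 in daf-16 was made with a filter of 5 FPKM (adjusted p = 0.0434) and with quantile normalization (0.0363). In N2 alone, 2 of the 10 fell and 0 rose, where 0.872% of all genes passed, 0.227% lower and 0.645% higher. An unadjusted p under 0.05 was found for 5 of the 10, where 15.7% of all genes had one. Both N2 libraries on hns food lay below both on BW25113 food for 7 of the 10, all but pcca-1, pccb-1 and mce-1, and for 28.9% of all genes.

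The food effect was compared between the genotypes by the interaction, the effect in N2 minus that in daf-16. By limma 0 of the 10 genes passed, and 0 had an unadjusted p under 0.05, where 0.0961% of all genes passed and 3.7% had such a p. The interaction lay below 0 for 9 of the 10, against 47.8% of all genes, and ranged over all 10 as a log2 difference from -0.14 to 0.06. Leaving out 1 library could turn it above 0 for acdh-1, F09F7.4, pcca-1, pccb-1 and mmcm-1, and below 0 for mce-1. For acdh-1 the interaction was -0.04 ± 0.11, with a 95% interval of -0.31 to 0.23 and an adjusted p of 0.9999. For Y38F1A.6 it was -0.11 ± 0.11 (-0.37 to 0.16) and for ech-6 it was -0.14 ± 0.11 (-0.41 to 0.13). These intervals do not show that the food effects were the same in both genotypes.

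Unequal changes of the shunt genes altered their proportions. The acdh-1 level was 3.20 and 3.30 times that of alh-8 in daf-16 on hns food, against 5.37 and 4.55 times on BW25113 food. In N2 it was 3.68 and 3.54 times on hns food, against 5.13 and 5.33 times on BW25113 food. The ratio did not overlap between foods in either genotype, and being a ratio within a library it does not depend on scaling between libraries. It shows unequal change and not which of the genes moved. The ratio of F09F7.4 to Y38F1A.6 lay between 1.08 and 1.26 in all 8 libraries. Summed over its 5 genes the shunt held 2439.7 and 2564 FPKM in daf-16 on hns food, against 3388 and 3325 FPKM on BW25113 food. In N2 it held 2370.2 and 2622 FPKM with hns bacteria, against 3503 and 3587 FPKM on BW25113 food. The sum of the shunt was 4.39 and 4.29 times that of the B12 route in daf-16 on hns food, against 6.10 and 5.10 times on BW25113 food. In N2 this ratio was 3.81 and 4.12 on hns food, against 5.26 and 5.24 on BW25113 food. Between 45.4% and 52.7% of the shunt sum was acdh-1, so these sums follow that gene most.

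**Figure D3:**
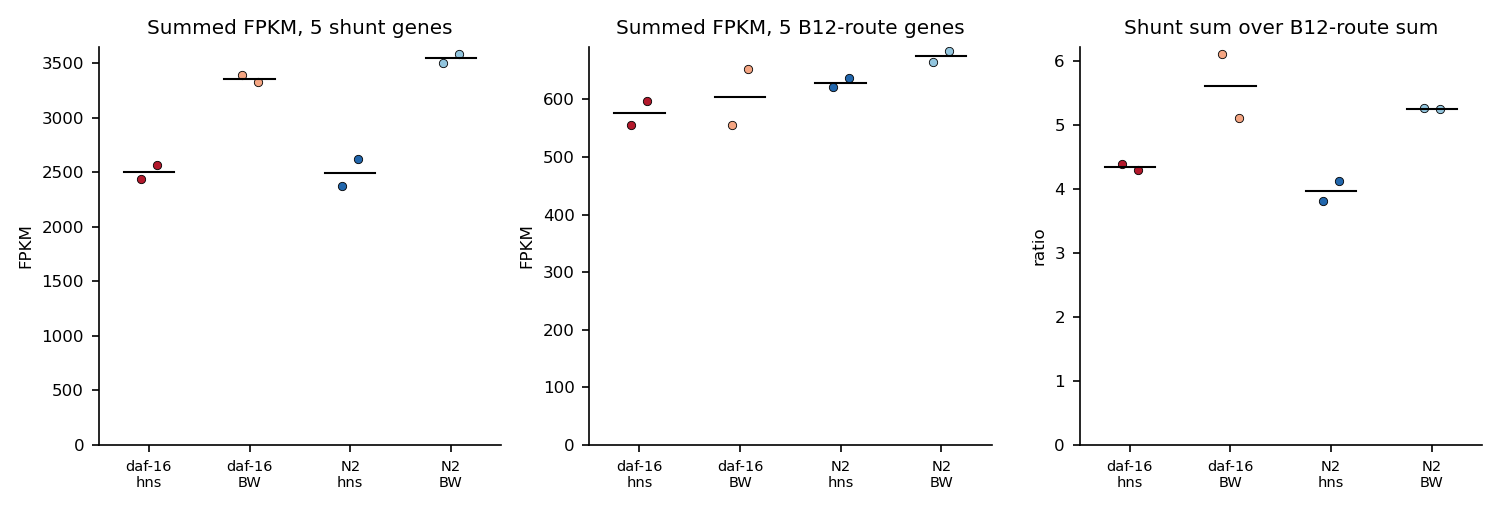
Summed FPKM of the 5 shunt genes (left), of the 5 B12-route genes (middle) and the ratio of the first to the second (right) in each library (points) with the group mean (line). The ratio lies between 3.81 and 4.39 on hns food and between 5.10 and 6.10 on BW25113 food.

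The order of the levels was steady except between pccb-1 and mmaa-1. In both genotypes pccb-1 had the higher group mean on hns food and mmaa-1 on BW25113 food. In all 4 groups acdh-1 was highest, followed by ech-6, alh-8, F09F7.4 and Y38F1A.6, then mce-1, with mmcm-1 lowest. Neighbours in this order whose libraries overlapped were pccb-1 and mmaa-1 in daf-16 on hns food, pccb-1 and pcca-1 in daf-16 on BW25113 food, Y38F1A.6 with mce-1 and mmaa-1 with pcca-1 in N2 on hns food, and mmaa-1 and pccb-1 in N2 on BW25113 food. On hns food alh-8 stood well above F09F7.4, at 350.4 against 219.9 FPKM in daf-16 and 328 against 244 FPKM in N2, while on BW25113 food the distance was smaller, at 351 against 301 FPKM in daf-16 and 353 against 344 FPKM in N2.

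Genotype was tested on each food. On BW25113 food all 10 genes lay below 0 in daf-16 relative to N2, as did 47.6% of all genes. The median log2 fold change was -0.11, against 0.0080 over all genes. With median-ratio scaling ech-6 and alh-8 lay above 0 (0.0089 and 0.0012). When replicate 1 of daf-16 on BW25113 food was left out, ech-6 (0.030), alh-8 (0.062), pcca-1 (0.059) and mmcm-1 (0.021) lay above 0. By limma 0 passed and 1, pccb-1, had an unadjusted p under 0.05 (-0.30 ± 0.11, adjusted p = 0.486), where 0.261% of all genes passed and 9.12% had such a p. On hns food the median was -0.04, against -0.0046 over all genes. There 0 passed and 1, mce-1, had an unadjusted p under 0.05 (-0.24 ± 0.09, adjusted p = 0.619), where 0.233% of all genes passed and 7.84% had such a p. Pooled over foods 0 passed and 3 had an unadjusted p under 0.05, where 0.831% of all genes passed and 12.9% had such a p. These were F09F7.4 (-0.17 ± 0.06, adjusted p = 0.296), pccb-1 (-0.24 ± 0.08, adjusted p = 0.27) and mce-1 (-0.21 ± 0.07, adjusted p = 0.261). For mce-1 and pccb-1 all 4 daf-16 libraries lay below all 4 N2 libraries, as they did in 2.15% of all genes. On BW25113 food the daf-16 libraries lay below those of N2 for acdh-1, F09F7.4 and Y38F1A.6 as well, 5 of the 10 in all, against 16.3% of all genes. On hns food they lay below for pcca-1, pccb-1 and mce-1, 3 of the 10 (17.3% of all genes), and above for ech-6 and alh-8, 2 of the 10 (17.5% of all genes). The pooled genotype effect on acdh-1 was -0.07 ± 0.06, with a 95% interval of -0.21 to 0.06 (adjusted p = 0.646).

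**Figure D4:**
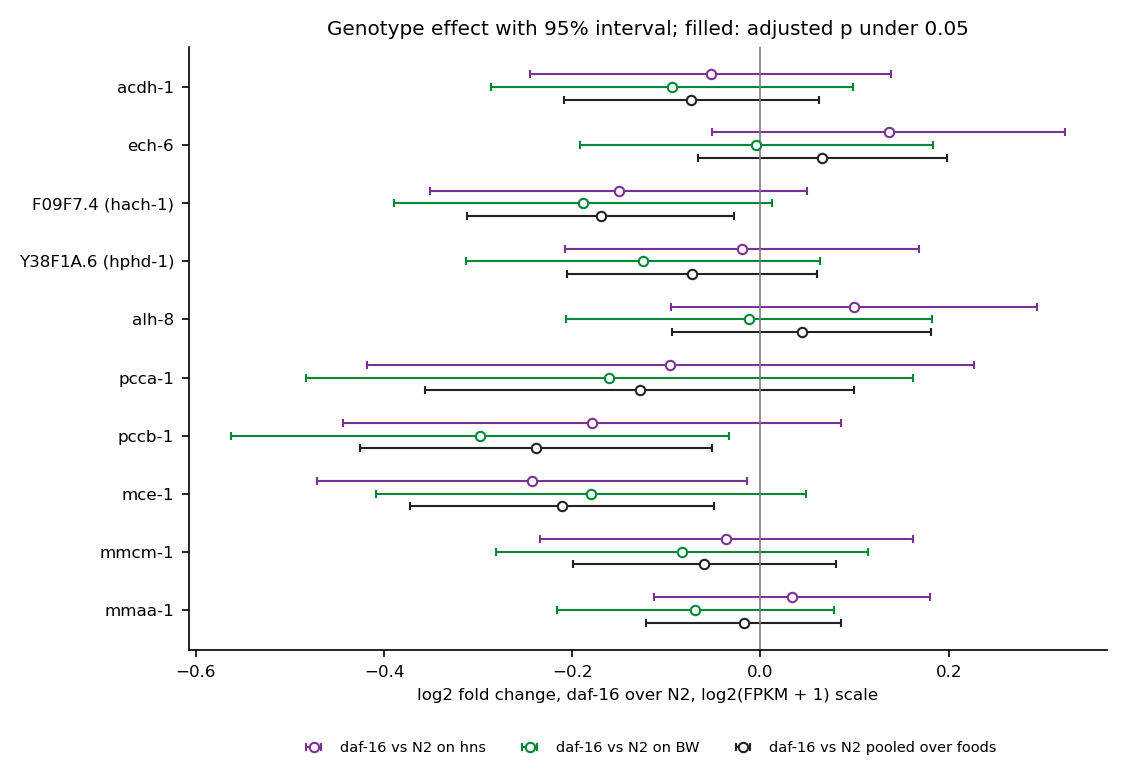
Genotype effect on each of the 10 genes as a log2 fold change, daf-16 over N2 (horizontal axis, log2(FPKM + 1) scale), on hns food, on BW25113 food and pooled. Bars are 95% intervals; every point is open, since none passed an adjusted p of 0.05, and the pooled intervals of F09F7.4, pccb-1 and mce-1 do not reach 0.

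Other genes of these pathways were counted by lists of names, of which 27 of 30 matched a row (F27D4.5, mccc-2 and ech-1.1 were not matched). Of 7 genes of B12 transport and handling, 2 fell on hns food in the pooled comparison and 0 rose, with a median of -0.22, where 0.515% of all genes fell and 1.24% rose. The larger change was in mrp-5, an ATP-binding cassette transporter gene described in worms in the export of heme and of B12 from the intestine. It had 30.5 and 31.7 FPKM in daf-16 on hns food, against 59.2 and 65.0 FPKM on BW25113 food. N2 worms had 27.2 and 30.4 FPKM with hns bacteria, against 61.9 and 59.3 FPKM on BW25113 food. The foods lay far apart in both genotypes. The change was 2.05-fold lower when pooled (-1.01 ± 0.06, limma adjusted p = 0.000813, under 0.05 in all 14 alternatives), -0.97 ± 0.08 in daf-16 (adjusted p = 0.0072) and -1.05 ± 0.08 in N2 (adjusted p = 0.0055). In N2 the call was lost without replicate 1 on BW25113 food (adjusted p = 0.0658), and in daf-16 without replicate 1 on hns food (0.0828), replicate 2 on hns food (0.0686) or replicate 2 on BW25113 food (0.0727). With only the compared libraries in the fit it was 0.0658 in daf-16 and 0.0666 in N2.

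The gene pmp-5, related to the human lysosomal B12 transporter ABCD4, had 68.2 and 78.4 FPKM in daf-16 on hns food, against 113.7 and 109.9 FPKM on BW25113 food. The N2 libraries held 60.9 and 74.8 FPKM with hns bacteria, against 91.7 and 98.3 FPKM on BW25113 food. The foods did not overlap, and the pooled change was -0.55 ± 0.08 (limma adjusted p = 0.0372). Without any 1 library other than replicate 2 of N2 on hns food the adjusted p was 0.0767 to 0.139. The adenosyltransferase gene mmab-1, whose product makes the mutase's cofactor, gave -0.15 ± 0.05 (limma adjusted p = 0.179).

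Of 4 close partners of the shunt 2 fell and 0 rose, with a median of -0.39, where 0.515% of all genes fell. The acyl-CoA dehydrogenase gene acdh-2, a relative of acdh-1, had 11.3 and 20.3 FPKM in daf-16 on hns food, against 37.2 and 41.4 FPKM on BW25113 food. Wild-type N2 libraries held 9.21 and 15.9 FPKM with hns bacteria, against 48.1 and 56.9 FPKM on BW25113 food. It was 3.24-fold lower when pooled (-1.67 ± 0.22, limma adjusted p = 0.029), a call that was lost without any 1 library other than replicate 2 of daf-16 or of N2 on hns food (adjusted p of 0.0701 to 0.111). F54D5.12 (dhgd-1) encodes the dehydrogenase that removes D-2-hydroxyglutarate, which the HPHD-1 reaction yields in worms. Its transcript had 156 and 175 FPKM in daf-16 on hns food, against 221 and 211 FPKM on BW25113 food. In N2 it had 138 and 163 FPKM with hns bacteria, against 209 and 219.9 FPKM on BW25113 food. Its pooled change was -0.45 ± 0.07 (limma adjusted p = 0.0402, or 0.0767 to 0.152 without any 1 library other than replicate 2 of N2 on hns food). Without the filter on low values the adjusted p was 0.067 for pmp-5, 0.0595 for acdh-2 and 0.0697 for F54D5.12.

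Breakdown of the branched-chain amino acids valine and isoleucine feeds propionyl-CoA into both routes. The list of branched-chain breakdown was not limited to these amino acids. Its 10 matched genes had a median of -0.12, and 9 lay below 0, as did 51.2% of all genes. By limma 0 of them passed while 3 had an unadjusted p under 0.05. Among 6 regulators 0 passed and 2 had such a p, with a median of -0.02. Such a p was also found for 6 of the 7 B12 handling genes and for all 4 close partners. Of the 10 genes of the 2 routes 6 had one. Of all 14564 genes 2771 had such a p in the pooled food comparison. Counts as small as those of the lists are not read as a difference from that share, which was not tested. The nuclear receptor genes nhr-10 and nhr-68, whose products activate the shunt in worms when propionate persists, gave -0.03 ± 0.05 (95% interval -0.15 to 0.10, limma adjusted p = 0.738) and -0.25 ± 0.09 (-0.47 to -0.02, adjusted p = 0.236). For nhr-10 the direction turned with median-ratio scaling (0.01).

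**Figure D5:**
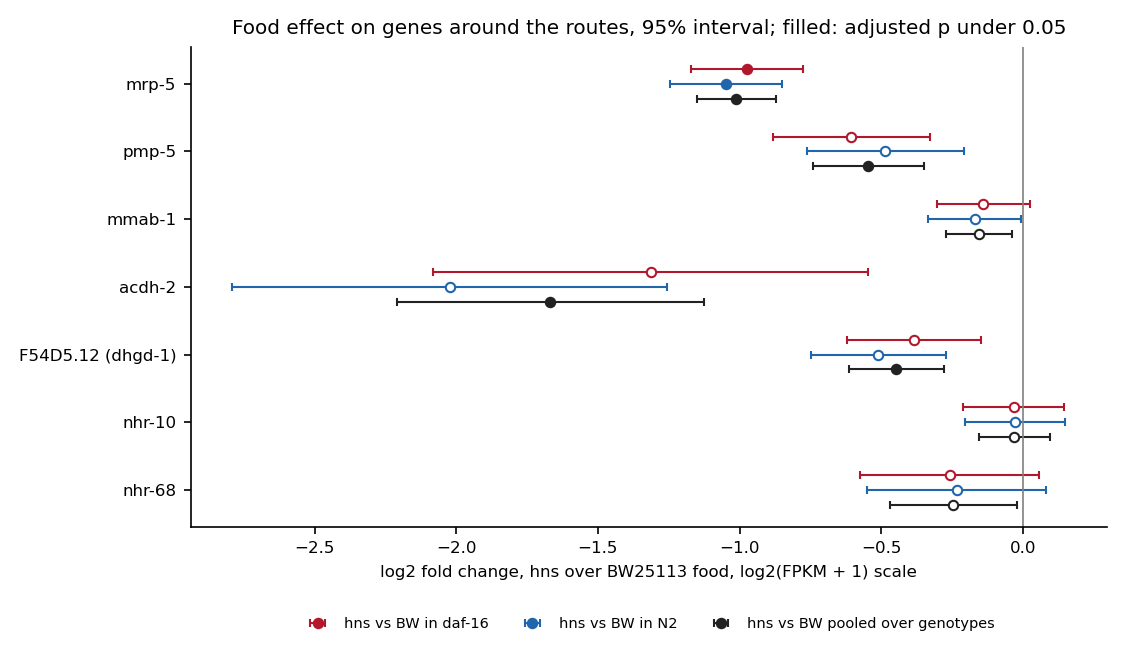
Food effect on 7 genes around the 2 routes as a log2 fold change, hns over BW25113 food (horizontal axis, log2(FPKM + 1) scale), in daf-16, in N2 and pooled. Bars are 95% intervals and filled points passed an adjusted p of 0.05; mrp-5 passed in both genotypes, and pmp-5, acdh-2 and F54D5.12 passed when pooled.

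Markers of cell types were set beside these changes. Of 7 intestinal markers 0 passed for pooled food by limma and 1 had an unadjusted p under 0.05, with a median of -0.09, where 2771 of all 14564 genes had such a p. Their summed level was 1102 to 1195 FPKM in daf-16 on hns food, against 1174 to 1295 FPKM on BW25113 food. In N2 it was 1272 to 1411 FPKM with hns bacteria, against 1316 to 1355 FPKM on BW25113 food. Of 7 hypodermal markers 6 were tested, and dpy-7, sqt-3 and wrt-10 rose on hns food when pooled, with a list median of 0.71, where 1.24% of all genes rose. Within genotypes the list median was 0.34 in daf-16, with 0 called by limma, 2 at an unadjusted p under 0.05 and a lowest value of -0.60, and 1.21 in N2, with 2 called. The hypodermal sum was 1607 to 1707 FPKM in daf-16 on hns food, against 1185 to 1918 FPKM on BW25113 food. In N2 it was 859 to 1599 FPKM with hns bacteria, against 934 to 1183 FPKM on BW25113 food. None of the markers was at 0 in both libraries of a group. Of 5 muscle markers hlh-1 rose. Of 5 germline markers 0 passed for pooled food and all lay below 0, with a median of -0.11. Their sum in N2 was 1750 to 1967 FPKM on hns food, against 2039 to 2090 FPKM on BW25113 food. In daf-16 the germline sums overlapped, at 1762 to 1891 FPKM against 1734 to 2109 FPKM. Of 5 neuronal markers 0 passed and 4 lay above 0, with a median of 0.32. No sperm or embryo marker passed. The part of these marker differences in the change of the shunt was not tested.

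The 5 genes outside the list whose levels were most like that of acdh-1 over the 8 libraries were lpin-1 (Pearson's r = 0.996), F32H5.1 (0.982), clec-47 (0.978), hrg-4 (0.977) and gsto-1 (0.977), out of 8608 genes with a mean of at least 10 FPKM. The libraries form 2 clusters by food for acdh-1, so r is given only as a description of these libraries. Genes picked this way differ between foods in the direction of acdh-1 by the choice itself, so their food changes are no separate evidence. The lipin gene lpin-1, which encodes a phosphatidate phosphatase, had 70.9 and 71.6 FPKM in daf-16 on hns food, against 83.2 and 82.4 FPKM on BW25113 food. N2 worms had 70.5 and 72.0 FPKM with hns bacteria, against 85.0 and 86.5 FPKM on BW25113 food. Its change was smaller than that of acdh-1 (pooled log2 fold change -0.24). The pooled changes of F32H5.1 (-0.88), clec-47 (-2.37), hrg-4 (-2.21) and gsto-1 (-2.66) were larger than that of acdh-1 (-0.63).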

How the data were processed

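RNA of whole worms was purified on RNeasy columns and converted to libraries by the SENSE mRNA method of Lexogen, as the labels' protocols state. The authors deposited 1 table of FPKM values for 8 libraries. Per the submitters' processing notes, TopHat2 2.0.11, Cufflinks 2.2.1 and build ce10 were used. For their annotation and strand setting the sources used here give nothing. Gene names, transcript lengths and overlaps came from WBcel235, another build, so no coordinates are given, and sequences are not used here. FPKM are scaled to the library, so a few abundant genes can shift all others.

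One mean per group was fitted to log2(FPKM + 1) by limma 3.58.1 under R 4.3.3, its trend option on, for genes reaching 1 FPKM in 2 or more of the 8 libraries. The fit had 4 residual and 2.32 prior degrees of freedom. Adding 1 to FPKM shrinks fold changes of low genes. The fit was tested on simulated data of the same size. There a true food effect of 0.58 on the log2 scale was called for 63.0% of changed genes in N2. In daf-16 it was called for 67.5%, and for 88.5% when pooled, so an effect of that size can go uncalled. Read counts were not used. Low FPKM of coding genes with 1 transcript over 1000 nt were compared with whole fragments. At the best depth 51.1% to 53.9% lay within 0.15 of a whole number, where evenly spread values at a fixed depth would give 30%. The best depth was picked from many for its highest share, so the distance from 30% is no test of it. The depths are therefore rough values and no test of counts was made.

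The 10 genes, the lists and the tests were chosen with earlier results of these data known. The rule for named genes takes the 10 genes, daf-16, list members past the threshold (at most 4 per list), nhr-10, nhr-68, mmab-1 and acdh-2, and the 5 genes most correlated with acdh-1. Also named, outside this rule, are F13D12.8 and wrt-2, for their overlap, and the marker genes past the threshold. Alternatives were a pseudocount of 0.1, no filter, a filter of 5 FPKM, quantile normalization, a replicate block, only the libraries compared, each library left out and, chosen after seeing the data, median-ratio scaling. A planned search of promoter and protein sequences was not run.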

Additional observations from a re-analysis of the deposited data

How the results depend on the processing

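Over the 10 genes and 7 comparisons, 937 of 1020 alternative values kept their direction and side of the threshold. Of the rest, 35 lost the call, 7 gained it and 41 turned direction, none of these last for a called change. Most of the 1020 values belong to changes not called in the main fit, which had no call to lose. The share kept is thus no measure of how well the calls held. The number of the 10 genes past the threshold was 2 for food in N2, against 0 without a filter, 0 with only the libraries compared, 4 with the replicate block and 0 to 1 without any 1 library. For food in daf-16 it was 0, against 1 with a filter of 5 FPKM, with quantile normalization and with the block. For pooled food it was 4, against 1 to 3 without any 1 library. It was 0 in every alternative for genotype and for the interaction.

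Of all genes, 127 passed for food in N2 (94 higher, 33 lower), against 60 without a filter, 488 with the block, 42 with only the libraries compared, 82 with median-ratio scaling and 35 to 83 without any 1 library, the split being 52 higher and 33 lower with quantile normalization. For food in daf-16 59 passed, against 31 to 61 without any 1 library. For pooled food 256 passed (181 higher, 75 lower), against 140 without a filter, 796 with the block and 78 to 162 without any 1 library, with 110 higher and 84 lower under quantile normalization. For daf-16 against N2 on BW25113 food 38 passed (22 higher, 16 lower), against 25 with quantile normalization (11 higher, 14 lower), 22 with only the libraries compared, 19 with median-ratio scaling and 17 to 28 without any 1 library. On hns food 34 passed (24 higher, 10 lower), against 12 to 35 without any 1 library, and 15 higher and 11 lower with median-ratio scaling. Pooled over foods 121 passed (82 higher, 39 lower), against 253 with the block and 47 to 103 without any 1 library, with 62 higher and 47 lower under quantile normalization. For the interaction 14 passed, against 31 without a filter, 5 with a filter of 5 FPKM and 13 to 24 without any 1 library. The cause of these differences was not tested.

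The directions that turned were of uncalled changes, most of them near 0. The largest was that of pcca-1 for genotype on BW25113 food, -0.16 in the main fit. With quantile normalization the food effect in N2 was 0.040 for pcca-1, 0.047 for pccb-1 and 0.044 for mce-1, and the pooled effect on pcca-1 was 0.057. With median-ratio scaling the effect in N2 was 0.023 for pcca-1, 0.035 for pccb-1, 0.029 for mce-1 and 0.028 for nhr-10, the pooled effect was 0.041 for pcca-1 and 0.012 for nhr-10, and the genotype effect on BW25113 food was 0.0089 for ech-6 and 0.0012 for alh-8. Without any 1 library, the food effect in N2 spanned -0.061 to 0.017 for pccb-1 and -0.11 to 0.052 for mce-1. In daf-16 it spanned -0.073 to 0.075 for alh-8, -0.19 to 0.25 for pcca-1, -0.062 to 0.26 for pccb-1 and -0.095 to 0.031 for nhr-10. The pooled food effect spanned -0.11 to 0.11 for pcca-1, -0.042 to 0.12 for pccb-1 and -0.061 to 0.0014 for nhr-10. The genotype effect on BW25113 food spanned -0.042 to 0.033 for ech-6, -0.086 to 0.062 for alh-8, -0.38 to 0.059 for pcca-1 and -0.19 to 0.021 for mmcm-1. On hns food it spanned -0.11 to 0.0067 for acdh-1, -0.11 to 0.074 for Y38F1A.6, -0.084 to 0.012 for mmcm-1 and -0.00098 to 0.068 for mmaa-1, and pooled over foods -0.041 to 0.0051 for mmaa-1. The interaction spanned -0.10 to 0.019 for acdh-1, -0.12 to 0.044 for F09F7.4, -0.28 to 0.15 for pcca-1, -0.28 to 0.039 for pccb-1, -0.025 to 0.15 for mce-1 and -0.15 to 0.057 for mmcm-1.

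Groups share replicate numbers, but the labels do not say that a number pairs samples. Deviations of same-numbered samples correlated across genes at 0.02 to 0.16. Of the 10 genes, 9 were higher in replicate 2 in daf-16 on hns food and 7 in daf-16 on BW25113 food. In N2, 8 were higher in replicate 2 on hns food and 7 on BW25113 food. The median log2 difference over all genes tested, replicate 2 minus replicate 1, was -0.016 to 0.032 across groups. The block takes the number as a pairing, which was not tested. With the block ech-6 passed for pooled food (limma adjusted p = 0.0184) and acdh-1 for food in daf-16 (0.0491). For food in N2, ech-6 (0.0296) and F09F7.4 (0.0457) passed with the block. With 2 libraries a group, a call lost without 1 library leaves that group with a lone sample, assumed to vary like the others.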
